A study of Mus musculus with 9 samples.

Results

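G1E-ER4 cells that had not received estradiol were compared with the G1E line from which they derive, over 5 of the 9 PRO-seq libraries of the series. The members were taken by the cell line and treatment in the sample labels, which gave 3 libraries of uninduced G1E-ER4 (0 h) and 2 of G1E. PRO-seq reads nascent RNA that is still held by engaged RNA polymerase, so it measures transcription and not RNA stability. Both lines are mouse erythroid cultures grown without estradiol in serum with epoetin and a conditioned medium that supplies kit ligand. G1E carries no transgene in the labels, and G1E-ER4 is described there as G1E expressing GATA1-ER, a fusion of GATA1 with an oestrogen receptor. The remaining 4 libraries are G1E-ER4 after 13 h or 24 h in 100 nM estradiol, with 2 libraries each, and serve here only to show where a level stands later in the same line.

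GATA1 is the zinc-finger transcription factor that drives red cell and megakaryocyte maturation, and G1E cells were made from embryonic stem cells that lack it. They grow as proerythroblast-like cells in which GATA2, KIT and MYC keep the progenitor state going. In G1E-ER4 the fusion protein is held inactive until estradiol binds it, and the cells then mature. The promoter that drives GATA1-ER is not named in the labels, and each line is represented by itself alone. The fusion and every other difference between the lines therefore cannot be told apart here.

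Gene-body reads per library ran from 37830789 in G1E replicate 2 to 139945759 in G1E-ER4 replicate 3, and element reads from 15394427 to 59952454 in the same libraries. The log2 profiles of the G1E pair correlated at r = 0.993 and those of the G1E-ER4 libraries at r = 0.991 to 0.995. Between the lines r was 0.955 to 0.960. Whether replicates were grown apart is not said in the labels, and p-values measure only the spread between these libraries. Defining markers of the erythroid lineage, among them Gata1, Klf1, Epor and Kit, were all read, and the summed level of 5 such markers was 1061 to 1484 CPM in G1E and 793 to 877 CPM in G1E-ER4. CPM are counts scaled to library size, taken over the whole gene and not per length. Mast cell and basophil markers summed to 29.0 to 81.8 CPM and megakaryocyte markers to 34.3 to 63.4 CPM over the 5 libraries. Granulocyte and monocyte markers summed to 0.158 to 0.749 CPM, with S100a8 at 0 reads, and lymphocyte markers to 0.441 to 1.30 CPM.

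The lines differed at 2415 of 13825 tested genes (17.5%). In uninduced G1E-ER4 1090 genes were higher (7.88% of those tested) and 1325 lower (9.58%), each by edgeR's quasi-likelihood test at an adjusted p under 0.05. Large differences were common among them, since 687 higher and 960 lower genes differed at least 2-fold, 267 and 379 at least 8-fold, and 93 and 108 at least 64-fold. The median log2 fold change of all tested genes was 0.04. Fold changes are G1E-ER4 over G1E on the log2 scale, each with a standard error (SE) derived from the F statistic. The CPM of the lines did not overlap, called or not, for 24.4% of tested genes on the higher and 22.7% on the lower side. The 5 libraries compared, fitted alone, gave 1179 higher and 1455 lower genes.

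**Figure D1:**
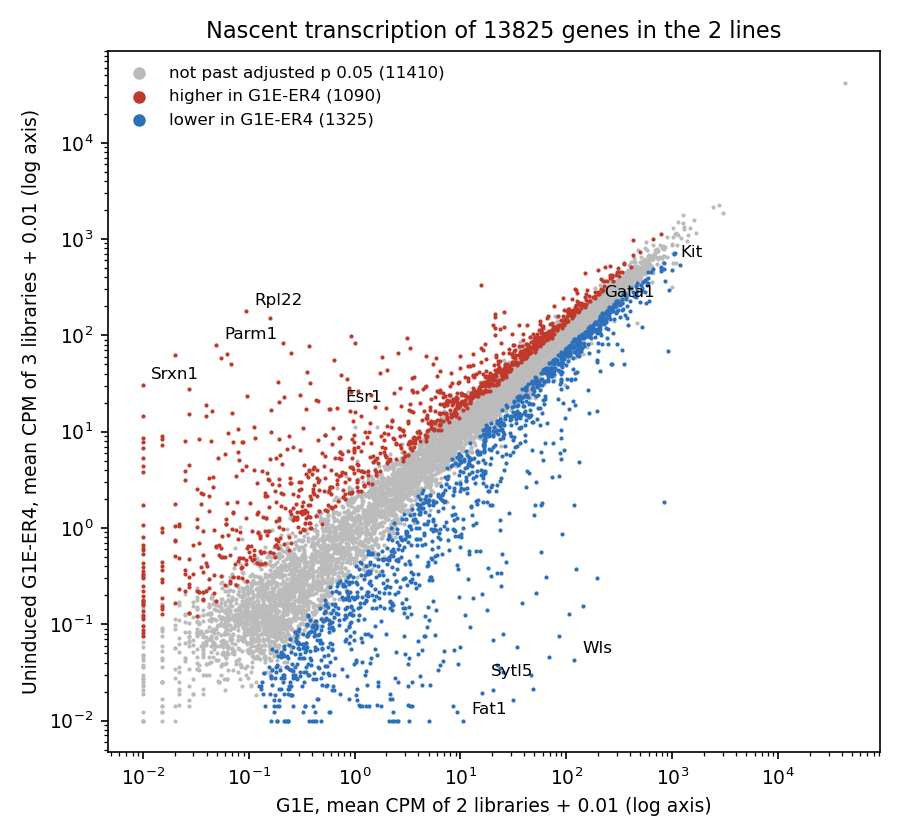
Mean CPM of each of 13825 tested genes in G1E (2 libraries, horizontal log axis) and in uninduced G1E-ER4 (3 libraries, vertical log axis), with 0.01 added so that a level of 0 can be drawn. Most of the 11410 grey genes lie along the diagonal, while the columns at the left edge and the row at the bottom hold genes near silent in 1 line.

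The counts depended on G1E replicate 1, the deeper of the pair. Without it 535 genes were higher and 610 lower, and without G1E replicate 2 the counts were 586 and 991. Library numbers in the sample titles run in series, and 1 G1E library and 1 uninduced G1E-ER4 library (replicates 1 and 3) lie in the same run. A fit with the runs as a block kept 351 higher and 469 lower genes, and the sign within that run was the same as in the fit for 2415 of the 2415 genes. These libraries are also part of the fit, and what the numbers stand for is not stated. G1E replicate 2 is alone in its run, so the block fit in effect set G1E replicate 1 against G1E-ER4 replicate 3. That is the same pair as in the sign check, and not a comparison of 2 with 3 libraries.

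The fusion itself was looked at first. Gata1 was read at 214 and 164 CPM in G1E and 257, 188 and 198 CPM in G1E-ER4, and the groups overlapped (log2 fold change 0.18 ± 0.18, edgeR adjusted p = 0.565). Esr1, the oestrogen receptor gene whose hormone-binding part the fusion carries, was read at 0.811 and 0.531 CPM in G1E and 29.0, 11.97 and 11.4 CPM in G1E-ER4. No G1E library came near the lowest G1E-ER4 library, and Esr1 was 25.2-fold higher (log2 fold change 4.65 ± 0.56, edgeR adjusted p = 0.000327). The 1 tested element within 100 kb of the Esr1 start, inside the gene at chr10:5558700-5559901 (mm9), went the other way, at 3.59 and 2.72 CPM in G1E and 0.936, 0.715 and 0.548 CPM in G1E-ER4 (-2.11 ± 0.51, edgeR adjusted p = 0.00981). Gene-body counts do not tell reads of the fusion from reads of the chromosomal genes. Of 13 tested textbook oestrogen receptor targets, a list that includes Esr1, 1 was higher and 1 lower, with a median of -0.07. The lower gene was Igfbp4, a binding protein of insulin-like growth factors (-2.66 ± 0.78, edgeR adjusted p = 0.0418), which passed in neither the DESeq2 fit nor the fit without G1E replicate 2 (adjusted p = 0.341).

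Kit, Gata2, Myc, Myb and Klf1, which estradiol is known to move in these cells, did not pass the test between the lines. Kit, the stem cell factor receptor that GATA1 represses, was read at 1173 and 841 CPM in G1E and 474, 604 and 609 CPM in G1E-ER4. Every G1E-ER4 library was lower than both G1E libraries, but the difference of -0.84 ± 0.30 did not pass the test (edgeR adjusted p = 0.0876), though it did by DESeq2 (adjusted p = 0.0465) and in a fit of the 5 libraries alone (edgeR adjusted p = 0.00728). Gata2, the GATA factor that precedes GATA1, was read at 308 and 147 CPM in G1E and 131, 147 and 185 CPM in G1E-ER4, with overlapping groups (-0.56 ± 0.43, edgeR adjusted p = 0.448), and its value was 0.08 without G1E replicate 1. In the estradiol libraries Kit stood at 199.6 and 297 CPM at 13 h and 105 and 46.9 CPM at 24 h, and Gata2 at 20.8 and 36.7 CPM at 13 h and 35.4 and 12.2 CPM at 24 h. Myc (-0.45 ± 0.29, edgeR adjusted p = 0.362), Myb (-0.16 ± 0.55, edgeR adjusted p = 0.886, but 1.38 without G1E replicate 1) and the erythroid activator Klf1 (0.18 ± 0.20, edgeR adjusted p = 0.616) were the other 3.

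Of the genes that GATA1 activates, Zfpm1, Alas2, Slc4a1 and Hbb-b1 were not called higher before estradiol. Zfpm1, which encodes the GATA1 cofactor FOG1, was read at 1374 and 484 CPM in G1E and 228, 315 and 354 CPM in G1E-ER4, so it was lower in G1E-ER4 (-1.64 ± 0.34, edgeR adjusted p = 0.00873). The G1E libraries lay far apart for Zfpm1, and the adjusted p was 0.0961 without G1E replicate 1. Alas2, which starts haem synthesis in red cells, was read at 3.26 and 0.918 CPM in G1E and 0.655, 1.28 and 0.777 CPM in G1E-ER4, and the groups overlapped (-1.31 ± 0.48, edgeR adjusted p = 0.0946, but 0.0234 without G1E replicate 2). Slc4a1, the anion exchanger of the red cell membrane, was read at 5.48 and 1.01 CPM in G1E and 0.391, 0.994 and 1.08 CPM in G1E-ER4. Its groups overlapped as well, although the test was passed (-2.02 ± 0.58, edgeR adjusted p = 0.0371), and without G1E replicate 1 it was not (adjusted p = 0.846). Hbb-b1, the adult beta globin gene, had 0 reads in G1E and 15 in the 3 G1E-ER4 libraries, and Hba-a1 had 0 reads in all 9 libraries. After estradiol Alas2 stood at 172 and 92.3 CPM at 13 h and 464 and 699 CPM at 24 h, and Slc4a1 at 6.91 and 3.61 CPM at 13 h and 353 and 356 CPM at 24 h.

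The most extreme differences were genes transcribed in 1 line and near silent in the other. A gene was counted as near silent with at most 3 reads over all libraries of a line while every library of the other line held at least 0.5 CPM. By this rule 37 genes were near silent in G1E and 32 in uninduced G1E-ER4. Of the 37 genes 11 had no read at all in G1E, and of the 32 genes 8 had none in G1E-ER4. Both sets touched 17 chromosomes. Of the 37 genes 6 lie on chromosome 2 and 7 on chromosome 4, which hold 1119 and 876 of the 13825 tested genes, and of the 32 genes 2 lie on each. Leaving out G1E replicate 1 raised the first count to 84, and leaving out G1E-ER4 replicate 3 raised the second to 56, since fewer reads then had to be absent. Where a line had 0 reads, 3 reads over its libraries were put in their place and the fold is given as a minimum. Where it had 1 to 3 reads, the ratio carries its counting interval.

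Srxn1, sulfiredoxin, which repairs over-oxidised peroxiredoxins, showed the largest increase. It was read at 0 and 0 CPM in G1E and 36.1, 28.2 and 26.2 CPM in G1E-ER4, so it was at least 1380.3-fold higher (edgeR adjusted p = 7.10e-07). Its start element at chr2:151930450-151932651 (mm9) followed, with 0 and 0 CPM in G1E and 70.0, 71.0 and 54.3 CPM in G1E-ER4. No read was counted in G1E at either the gene or its start, and after estradiol the gene stood at 46.5 and 33.3 CPM at 13 h and 90.5 and 69.6 CPM at 24 h.

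Spry4 belongs to the same set. Spry4, an inhibitor of receptor tyrosine kinase signalling to ERK, was read at 0.01001 and 0.0242 CPM in G1E and 29.9, 28.2 and 25.4 CPM in G1E-ER4, a ratio of 1928 (95% counting interval 533 to 15919.9). Every uninduced G1E-ER4 library stood far above both G1E libraries. In the estradiol libraries Spry4 stood at 18.4 and 11.1 CPM at 13 h and 0.522 and 0.446 CPM at 24 h.

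Rpl22, which encodes a protein of the large ribosomal subunit, had 14 reads in both G1E libraries together. It was read at 0.120 and 0.0483 CPM in G1E and 167, 171 and 194 CPM in G1E-ER4 (10.81 ± 0.42, edgeR adjusted p = 1.67e-07). Its paralogue Rpl22l1, named here after its values were seen, stood at 38.7 and 40.4 CPM in G1E and at 36.1, 43.8 and 54.0 CPM in G1E-ER4 (edgeR adjusted p = 0.671). The 2 genes are near copies of one family, so a part of their reads could be shared. Rpl22 passed the test and Rpl22l1 did not.

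Among the 15 largest increases, Osr2, Foxa1 and Foxd2 encode transcription factors of embryonic patterning. Osr2, a zinc-finger gene of palate and limb, stood at 0 and 0 CPM in G1E and 9.88, 8.01 and 5.71 CPM in G1E-ER4 and was at least 348-fold higher. Foxa1, a pioneer factor of liver and gland epithelium, stood at 0 and 0 CPM in G1E and 6.22, 5.95 and 3.70 CPM in G1E-ER4 and was at least 233-fold higher. Foxd2, a forkhead gene of mesenchyme, and the noncoding Foxd2os that starts beside it were at least 76.5-fold and at least 684-fold higher. These 4 genes were at 0 reads in both G1E libraries. Foxd2 and Foxd2os share a start element, at chr4:114580650-114583101, so these 2 are not independent.

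The 15 largest increases also held Zfp449, Lfng, Tusc1, Parm1, Bicd1 and Spef1. Lfng, which adds sugars to Notch receptors, was read at 0 and 0 CPM in G1E and 5.28, 3.89 and 4.03 CPM in G1E-ER4 and was at least 203-fold higher. Parm1, a mucin-like membrane protein, was read at 0.0300 and 0.0483 CPM in G1E and 105, 69.6 and 63.5 CPM in G1E-ER4 (11.06 ± 0.46, edgeR adjusted p = 2.62e-07). Bicd1, which links cargo to the dynein motor, was read at 0.0200 and 0.0966 CPM in G1E and 48.9, 48.2 and 52.7 CPM in G1E-ER4 (10.11 ± 0.39, edgeR adjusted p = 1.67e-07). The zinc-finger gene Zfp449 and Tusc1 had no read in G1E and were at least 307-fold and at least 176-fold higher, and Spef1, a microtubule protein of flagella, had a ratio of 1348 (95% counting interval 242 to 53281). In each of these 6 genes every G1E-ER4 library stood above both G1E libraries.

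The 15 largest decreases included Fat1, Wls and Sytl5. Fat1, an atypical cadherin, was read at 11.8 and 9.47 CPM in G1E and 0, 0 and 0 CPM in G1E-ER4, so it was at least 1123-fold lower (edgeR adjusted p = 1.79e-05). Wls, the carrier that takes Wnt proteins to the cell surface, was read at 127 and 111 CPM in G1E and 0.0126, 0.0517 and 0.0344 CPM in G1E-ER4 (-11.75 ± 0.29, edgeR adjusted p = 1.61e-08). Sytl5, a partner of Rab27 in vesicle traffic, was read at 65.0 and 72.4 CPM in G1E and 0.0252, 0.0129 and 0.0687 CPM in G1E-ER4 (-10.64 ± 0.42, edgeR adjusted p = 1.83e-07). These genes were well transcribed in G1E and close to 0 in each G1E-ER4 library.

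Dnajc27, a Rab-like GTPase with a J domain, was read at 49.0 and 48.8 CPM in G1E and 0, 0.0129 and 0.0206 CPM in G1E-ER4 (-11.71 ± 0.53, edgeR adjusted p = 3.89e-07). Its start element at chr12:4082000-4083351 held 19.9 and 17.4 CPM in G1E and 0, 0 and 0 CPM in G1E-ER4, so the start was silent as well. Tbc1d19, with a domain that turns Rab GTPases off, had a ratio of 4713 (95% counting interval 1304 to 38926) for G1E over G1E-ER4. The same ratio was 2366 (95% counting interval 809 to 11477) for Lonrf2, a RING finger protein, and 3043 (95% counting interval 545 to 120288) for Bdnf, a nerve growth factor. Pced1b was read at 47.3 and 45.8 CPM in G1E and 0.0126, 0.0258 and 0.0206 CPM in G1E-ER4 (-11.09 ± 0.43, edgeR adjusted p = 1.67e-07).

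Weaker genes completed the 15 largest decreases. Plekhf1, an endosomal lipid-binding protein, Cmtm3, a chemokine-like membrane protein, and Abcg1, a sterol exporter, were at least 306-fold, at least 285-fold and at least 271-fold lower. Ly6e, an interferon-inducible surface protein, and the olfactory receptor gene Olfr1030 were at least 237-fold and at least 268-fold lower. All 5 were at 0 in the 3 G1E-ER4 libraries, from 1.57 to 3.74 CPM in G1E. Cmtm3, Olfr1030 and Ly6e each missed the threshold in 1 of the 15 other settings run.

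**Figure D2:**
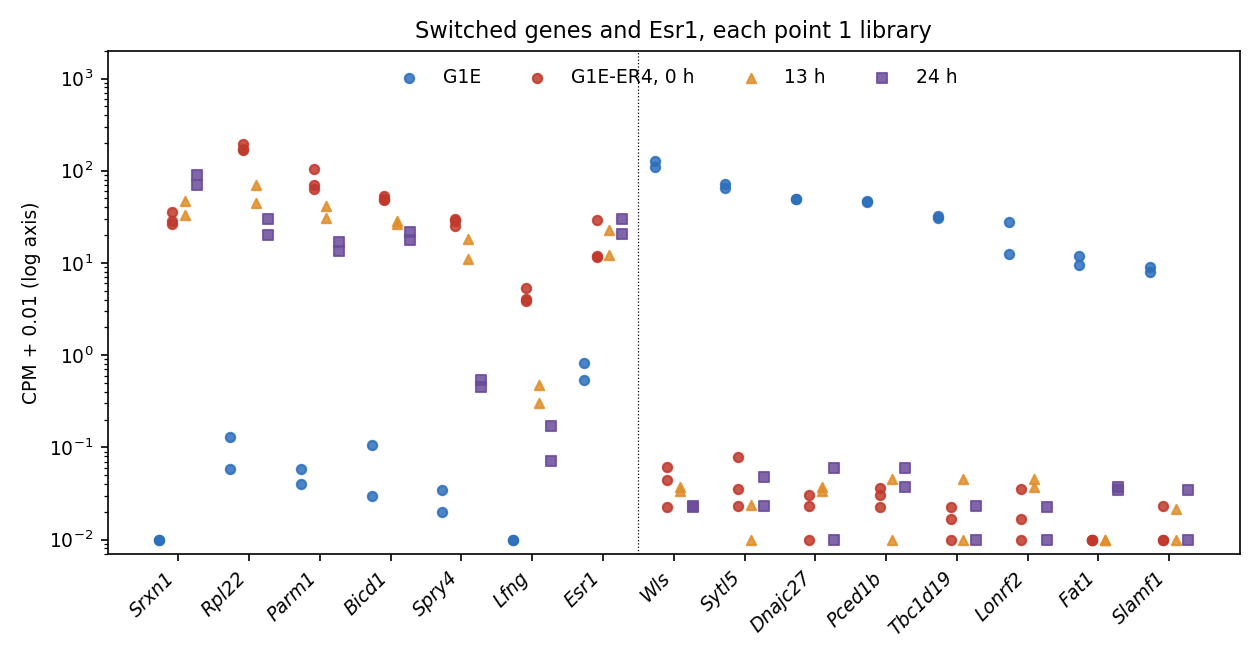
CPM of 14 switched genes and Esr1 on a log axis with 0.01 added, each point 1 library of G1E (blue), uninduced G1E-ER4 (red), 13 h (orange) or 24 h (purple). Genes left of the dotted line stood at or below 0.120 CPM in G1E apart from Esr1, and genes right of it stayed below 0.1 CPM in every G1E-ER4 library.

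Some start elements held no read in 1 line. The 250 bases before the RefSeq start (GRCm38.p6) are shown for 3 promoters used in G1E-ER4 only and 3 used in G1E only. Each CG dinucleotide is in capitals. The rule was that the table holds a single promoter for the gene. Other promoters used in G1E-ER4 met this rule too, so the 3 shown for that line are a selection. The deposited positions are in mm9, so the sequences were matched by gene symbol and not by position.
Srxn1, used in G1E-ER4: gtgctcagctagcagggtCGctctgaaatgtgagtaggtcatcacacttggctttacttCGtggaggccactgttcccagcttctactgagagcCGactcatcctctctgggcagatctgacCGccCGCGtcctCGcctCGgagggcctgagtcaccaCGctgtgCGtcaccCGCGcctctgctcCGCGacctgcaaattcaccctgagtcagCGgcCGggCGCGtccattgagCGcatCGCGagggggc
Golim4, used in G1E-ER4: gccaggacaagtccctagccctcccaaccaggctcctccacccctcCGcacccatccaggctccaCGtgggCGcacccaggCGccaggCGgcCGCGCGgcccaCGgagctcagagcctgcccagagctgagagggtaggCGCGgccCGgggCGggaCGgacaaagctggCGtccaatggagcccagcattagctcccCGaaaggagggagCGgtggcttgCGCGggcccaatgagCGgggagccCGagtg
Foxd2, used in G1E-ER4: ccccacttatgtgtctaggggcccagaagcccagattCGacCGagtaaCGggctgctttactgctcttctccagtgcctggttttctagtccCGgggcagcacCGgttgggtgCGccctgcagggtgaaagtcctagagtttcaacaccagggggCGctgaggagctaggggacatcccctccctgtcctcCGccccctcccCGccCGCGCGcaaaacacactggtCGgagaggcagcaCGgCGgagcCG
Dnajc27, used in G1E: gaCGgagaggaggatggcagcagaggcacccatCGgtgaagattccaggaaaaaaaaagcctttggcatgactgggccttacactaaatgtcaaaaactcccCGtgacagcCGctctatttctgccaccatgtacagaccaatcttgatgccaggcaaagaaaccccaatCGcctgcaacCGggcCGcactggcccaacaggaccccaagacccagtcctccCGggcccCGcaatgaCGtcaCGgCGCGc
Cmtm3, used in G1E: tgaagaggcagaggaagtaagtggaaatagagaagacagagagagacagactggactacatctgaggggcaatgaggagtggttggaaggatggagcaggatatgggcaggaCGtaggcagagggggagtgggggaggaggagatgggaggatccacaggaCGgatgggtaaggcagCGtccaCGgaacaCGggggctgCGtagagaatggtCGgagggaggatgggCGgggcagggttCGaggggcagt
Slamf1, used in G1E: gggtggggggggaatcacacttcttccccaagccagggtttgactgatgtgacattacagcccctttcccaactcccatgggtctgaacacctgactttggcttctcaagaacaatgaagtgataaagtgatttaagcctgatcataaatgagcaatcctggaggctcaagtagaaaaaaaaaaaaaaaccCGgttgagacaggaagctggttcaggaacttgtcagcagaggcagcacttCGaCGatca
The stretches hold 21, 21 and 16 CG in the first 3 and 13, 9 and 3 in the last 3. The other promoters used in G1E-ER4 that met the same rule overlapped both, with 20 CG for Gna12, 11 for Parm1 and 8 for Bicd1. The counts of the stretches shown are therefore not a comparison of the lines. Golim4, a Golgi membrane protein, is shown because its start element at chr3:75759500-75761651 had 0 and 0 CPM in G1E and 39.7, 37.2 and 32.4 CPM in G1E-ER4, the second largest increase of all elements.

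Promoter composition was compared over windows from 250 bases before to 50 after the start. A single window was found for 8447 of 13825 tested genes, 148 of the 267 genes higher by 8-fold or more and 224 of the 379 lower by 8-fold or more. The observed over expected CG ratio had a median of 0.750 in all, 0.546 in the higher and 0.342 in the lower set, and it was at least 0.6 in 68.3%, 43.9% and 29.9% of windows. The hexamers AGATAA and TGATAA, which GATA factors can bind, were searched on both strands. At least 1 of them stood in 10.8% of all windows, 14.9% of the higher and 17.9% of the lower set, and in 1 of 18 and 1 of 19 windows of the genes near silent in G1E and in G1E-ER4. These shares are a description, and the match of letters says nothing about binding.

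Genes silenced in G1E-ER4 stayed silent in the estradiol libraries, which the rule had not used. All 32 genes that were near silent in uninduced G1E-ER4 stood below 0.5 CPM in each of the 4 estradiol libraries, and 27 of them below 0.05 CPM. Of the 37 genes near silent in G1E, 20 held at least 0.5 CPM in all 4 and 8 were below 0.5 CPM in all 4. Of the 108 genes at least 64-fold lower, 107 were nearer to the off level on the log scale in all 4 estradiol libraries. Of the 93 genes at least 64-fold higher, 50 were nearer to the on level in all 4 and 10 nearer to the off level.

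Neighbouring genes were looked at next. Of the genes at least 64-fold lower, 36 had another tested start within 100 kb, and for 15 of them (41.7%) such a neighbour was lower too, against 12.3% of all 8813 genes with a neighbour. For the genes at least 64-fold higher the share with a higher neighbour was 16 of 53 (30.2%), against 1056 of all 8813. Among called genes of any size, 31.5% of 743 lower genes had a lower neighbour and 26.1% of 723 higher genes a higher one. The clearest run was the SLAM family on chromosome 1, receptors of lymphoid and myeloid cells. Slamf7 was at least 228-fold lower, and Cd48 and Slamf1 had G1E over G1E-ER4 ratios of 203 (95% counting interval 35.6 to 8114) and 2641 (95% counting interval 473 to 104396). Slamf7 and Cd48 start 29018 bases apart, and Cd48 and Slamf1 85077 bases.

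Red cell genes differed in both directions. The counts of this and the other lists stand against 7.88% higher and 9.58% lower of all tested genes. Of 24 tested genes of the red cell membrane and cytoskeleton 3 were higher and 9 lower, with a median log2 fold change of -0.47 against 0.04 for all genes. Epb4.2, protein 4.2 that ties band 3 to the skeleton, was read at 29.9 and 18.5 CPM in G1E and 2.73, 3.28 and 3.90 CPM in G1E-ER4 (-2.87 ± 0.28, edgeR adjusted p = 7.59e-05). Rhd, a subunit of the Rh complex, was read at 46.1 and 34.6 CPM in G1E and 16.7, 16.7 and 15.7 CPM in G1E-ER4 (-1.30 ± 0.19, edgeR adjusted p = 0.00100), and Epb4.1, protein 4.1 of the spectrin junction, had -0.76 ± 0.13 (edgeR adjusted p = 0.00303). In all 3 genes both G1E libraries exceeded every G1E-ER4 library. Slc4a1, Rhag, Xk and Ermap were also among the 9 lower genes. Dmtn, dematin, which bundles actin, went the other way, at 1.00 and 1.33 CPM in G1E and 4.26, 3.14 and 4.24 CPM in G1E-ER4 (1.77 ± 0.22, edgeR adjusted p = 0.000433), together with Ank1 and Stom.

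The membrane count rested in part on G1E replicate 1, without which 3 genes were higher and 3 lower. Of the 9 lower genes 4 lie on chromosomes 2 and 4, where whole stretches were shifted. The shifts went opposite ways, with a median of 0.15 over chromosome 2 and -0.23 over chromosome 4. Off these chromosomes 5 of 17 tested members were lower. Of 21 erythroid transcription factors 0 were higher and 4 lower, namely Zfpm1, Tal1, Gfi1b and Sox6, with a median of -0.08. Off chromosomes 2 and 4, 2 of 18 were lower. Tal1, the partner of GATA1 at erythroid enhancers, was read at 685 and 500.2 CPM in G1E and 331, 375 and 352 CPM in G1E-ER4 (-0.75 ± 0.15, edgeR adjusted p = 0.00657). Gfi1b, a repressor of erythroid and platelet cells, was read at 519 and 223 CPM in G1E and 108, 171 and 179 CPM in G1E-ER4 (-1.28 ± 0.32, edgeR adjusted p = 0.0218). Without G1E replicate 1 none of the 4 passed (adjusted p = 0.0961, 0.0768, 0.314 and 0.182 in that order), and 1 other member was higher.

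The haem synthesis list was split, and it also holds Fam132b, which encodes a hormone and not an enzyme of haem synthesis. Of 16 genes 3 were higher and 1 lower, or 2 and 3 without G1E replicate 2, and the median was 0.00. Alas1, the housekeeping form of the first enzyme, was read at 10.1 and 8.45 CPM in G1E and 22.4, 28.2 and 24.7 CPM in G1E-ER4 (1.44 ± 0.18, edgeR adjusted p = 0.000433), and all 3 G1E-ER4 libraries exceeded both G1E libraries. Fam132b, erythroferrone, the hormone that red cell precursors use to lower hepcidin, was 5.30-fold higher (2.41 ± 0.48, edgeR adjusted p = 0.00683) and had an adjusted p of 0.0722 without G1E replicate 1. Alad (0.48 ± 0.13) was higher and Cpox (-0.75 ± 0.23) lower, and neither passed without G1E replicate 1 (adjusted p = 0.143 and 0.559), nor Alad without G1E replicate 2 (adjusted p = 0.0787). Of 6 tested globin genes 0 passed by edgeR, and with G1E replicate 2 left out 2 were lower.

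**Figure D3:**
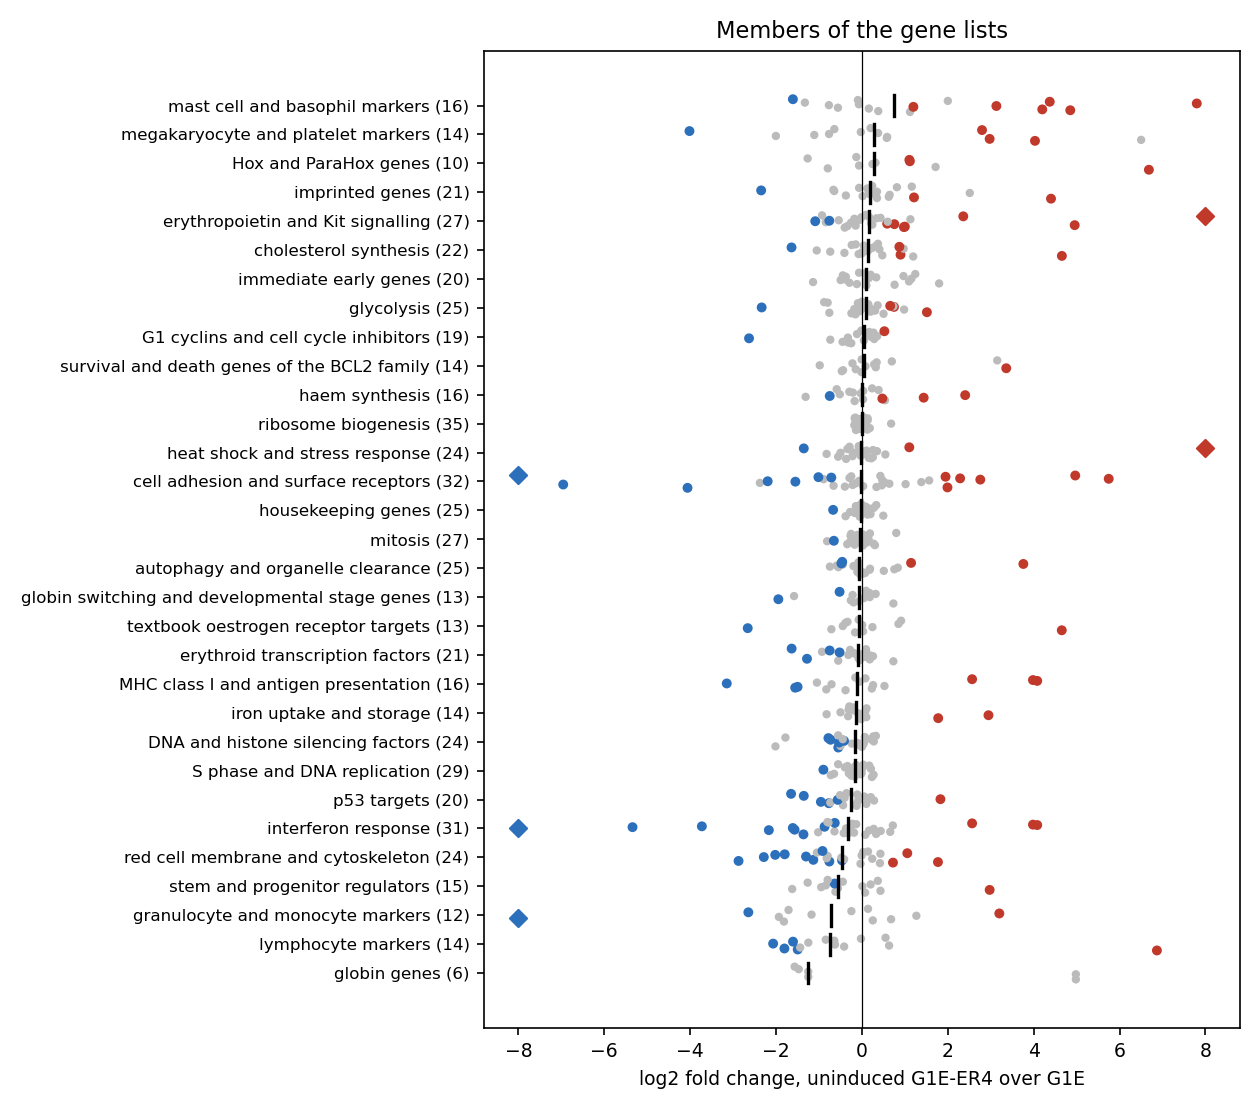
Log2 fold changes of the tested members of 31 gene lists, sorted by the list median (black bar), with the number tested in brackets. Red and blue points passed an adjusted p under 0.05, grey points did not, and diamonds at either edge stand for values beyond 8, among them Srxn1 and Slamf1.

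Growth factor signalling genes differed too. Of 27 genes of erythropoietin and Kit signalling 7 were higher and 2 lower, with a median of 0.16. The counts were 7 and 1 without G1E replicate 1, 4 and 4 without G1E replicate 2, 7 and 5 by DESeq2, and 3 and 2 with library number runs as a block. Beside Spry4, its relative Spry1 stood at 1.94 and 1.84 CPM in G1E and 9.90, 11.7 and 7.59 CPM in G1E-ER4 (2.36 ± 0.32, edgeR adjusted p = 0.000764). Etv4, an ETS factor that ERK signalling induces, stood at 0.170 and 0.266 CPM in G1E and 9.73, 3.56 and 6.30 CPM in G1E-ER4 (4.96 ± 0.60, edgeR adjusted p = 0.000374). Both were above the G1E range in every G1E-ER4 library. Gab1, Gab2, Csf2rb and Csf2rb2 were the other 4, and the last 2 are near copies whose reads may be shared. Pik3cd and Pik3r1, subunits of PI3-kinase, were lower, Pik3cd at 247 and 180.2 CPM in G1E and 105, 107 and 89.3 CPM in G1E-ER4 (-1.09 ± 0.18, edgeR adjusted p = 0.00279).

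Fli1, an ETS factor of megakaryocytes and stem cells, was higher by 7.86-fold. It was read at 24.0 and 18.6 CPM in G1E and 213, 163 and 128 CPM in G1E-ER4 (2.97 ± 0.44, edgeR adjusted p = 0.00131). It was 1 of 15 tested stem and progenitor regulators that were higher, and Lyl1 was the 1 that was lower (-0.64 ± 0.17, edgeR adjusted p = 0.0253, and adjusted p = 0.283 without G1E replicate 1). The median of that list was -0.56. Bcl2, which blocks cell death at mitochondria, was read at 2.62 and 4.66 CPM in G1E and 44.7, 35.7 and 30.7 CPM in G1E-ER4 (3.36 ± 0.37, edgeR adjusted p = 0.000214), and was the 1 of 14 genes of its family past the test. After estradiol Bcl2 stood at 20.7 and 21.3 CPM at 13 h and 4.77 and 2.33 CPM at 24 h.

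Markers of other blood lineages moved in both directions. Of 16 mast cell and basophil markers 6 were higher and 1 lower, with a median of 0.75. Ms4a2, the beta chain of the IgE receptor, was read at 0.190 and 0.0966 CPM in G1E and 3.01, 1.55 and 4.997 CPM in G1E-ER4 (4.37 ± 0.71, edgeR adjusted p = 0.00296), and Cyp11a1, which makes pregnenolone, at 0.711 and 0.435 CPM in G1E and 16.5, 16.9 and 17.8 CPM in G1E-ER4 (4.85 ± 0.56, edgeR adjusted p = 0.000267). Neither gene's groups overlapped. Cpa3, a granule protease, overlapped between groups at 53.2 and 28.9 CPM in G1E and 50.7, 33.2 and 76.6 CPM in G1E-ER4 (edgeR adjusted p = 0.525), and Mcpt8 was at 0. The count of higher members was 2 without G1E replicate 1 and 3 without G1E replicate 2. Whether other cells in the cultures had a part in these values was not tested.

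Among 14 megakaryocyte and platelet markers 3 were higher and 1 lower. F2r, the thrombin receptor, was read at 0.120 and 0.145 CPM in G1E and 2.76, 2.22 and 1.48 CPM in G1E-ER4 (4.03 ± 0.58, edgeR adjusted p = 0.00102), while Pf4, the platelet chemokine, was read at 2.52 and 1.74 CPM in G1E and 0.340, 0.0129 and 0.0550 CPM in G1E-ER4 (-4.02 ± 0.86, edgeR adjusted p = 0.00974, and adjusted p = 0.0720 without G1E replicate 1). Of 12 granulocyte and monocyte markers 1 was higher and 2 lower. Fcgr3, an IgG receptor, was read at 0.421 and 0.290 CPM in G1E and 4.31, 2.16 and 3.62 CPM in G1E-ER4 (3.20 ± 0.49, edgeR adjusted p = 0.00154), and Csf2ra, a receptor chain for GM-CSF, had a G1E over G1E-ER4 ratio of 443 (95% counting interval 78.6 to 17582). Of 14 lymphocyte markers 1 was higher and 4 lower, or 1 and 1 without G1E replicate 1. Blnk, an adaptor of B cell receptor signalling, had a ratio of 143 (95% counting interval 25.5 to 5666) for G1E-ER4 over G1E, and Lck, a kinase of T cells, was lower (-1.60 ± 0.31, edgeR adjusted p = 0.00577, and adjusted p = 0.0545 without G1E replicate 2).

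Interferon-inducible genes differed in both directions. Of 31 tested genes 9 were lower and 3 higher, with a median of -0.32. Oas2 and Oasl1, which sense or bind double-stranded RNA, were read at 4.38 and 4.78 CPM in G1E and 0.151, 0.0904 and 0.0962 CPM in G1E-ER4 and at 4.91 and 6.59 CPM in G1E and 0.504, 0.336 and 0.454 CPM in G1E-ER4 (-5.34 ± 0.56, edgeR adjusted p = 0.000136 and -3.73 ± 0.35, edgeR adjusted p = 6.62e-05). Oas1a, Oas3, Irf5, Irf7, Ddx58, Mx2 and Trim25 were lower too. The lower G1E library exceeded the highest G1E-ER4 library for both named genes, and 6 members were lower without either G1E library in turn.

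The 3 higher interferon genes lie side by side in the major histocompatibility complex and serve peptide loading. Tap1, the peptide transporter, was read at 2.23 and 2.25 CPM in G1E and 17.2, 10.3 and 12.3 CPM in G1E-ER4 (2.57 ± 0.29, edgeR adjusted p = 0.000235). Psmb8, a subunit of the immunoproteasome, was read at 0.0300 and 0.0483 CPM in G1E and 0.529, 0.904 and 0.495 CPM in G1E-ER4 (4.08 ± 0.63, edgeR adjusted p = 0.00163), and Psmb9 was higher as well. On the list of 16 genes of MHC class I and antigen presentation these made the 3 higher, and 3 were lower. H2-D1, a classical class I heavy chain of a family of near copies, stood at 26.9 and 23.5 CPM in G1E and 6.71, 10.2 and 8.89 CPM in G1E-ER4 (-1.55 ± 0.22, edgeR adjusted p = 0.000951), and H2-T24, a non-classical one, at 2.29 and 2.56 CPM in G1E and 0.353, 0.220 and 0.247 CPM in G1E-ER4 (-3.15 ± 0.46, edgeR adjusted p = 0.00111).

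Surface receptors differed both ways. Of 32 genes of cell adhesion and surface receptors 6 were higher and 7 lower, with a median of -0.02. Itga9, an integrin chain, was read at 0.0701 and 0.0966 CPM in G1E and 8.05, 2.81 and 2.25 CPM in G1E-ER4 (5.75 ± 0.75, edgeR adjusted p = 0.000556), and Ccr1, a chemokine receptor, at 5.14 and 5.19 CPM in G1E and 0.265, 0.194 and 0.447 CPM in G1E-ER4 (-4.06 ± 0.40, edgeR adjusted p = 9.43e-05). Itga9 stood above and Ccr1 below the whole range of G1E in every G1E-ER4 library. The count of higher members was 2 without G1E replicate 1.

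Of 22 genes of cholesterol synthesis 3 were higher, among them Ebp and Pmvk, and 1 was lower. Ebp and Pmvk did not pass without G1E replicate 2 (edgeR adjusted p = 0.210 and 0.288), nor Pmvk without G1E replicate 1 (adjusted p = 0.0720). Airn, the imprinted noncoding RNA that silences Igf2r in cis, was read at 17.3 and 14.1 CPM in G1E and 375, 294 and 330.4 CPM in G1E-ER4, 21.2-fold higher (edgeR adjusted p = 1.44e-06). Gnas, an imprinted gene for a G protein, was the other higher imprinted gene (1.21 ± 0.19, edgeR adjusted p = 0.00186) of 21, with 1 lower. Ulk2, a kinase that starts autophagy, was 2.21-fold higher (edgeR adjusted p = 0.000414), with 2 higher and 2 lower of 25 genes in that list. Of 10 tested Hox and ParaHox genes 3 were higher and 0 lower, among them Hoxc8 (1.12 ± 0.25, edgeR adjusted p = 0.0126) and Hoxc9 (1.11 ± 0.23, edgeR adjusted p = 0.00880), and 1 was higher without either G1E library in turn. Hoxc8 had an adjusted p of 0.0890 without G1E replicate 1 and 0.0803 without G1E replicate 2, and Hoxc9 of 0.0888 without G1E replicate 2.

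Few genes of growth and division passed the test. In the S phase list the CPM of the lines did not overlap for 13 of 29 genes on the lower side and 0 on the higher side. Over all tested genes these shares were 22.7% and 24.4%. The median of the S phase list was -0.17, and DESeq2 called 3 of its genes lower and 0 higher. Of 35 ribosome biogenesis genes 0 passed by edgeR and 0 by DESeq2, and of 20 immediate early genes 0 passed by edgeR and 1 by DESeq2. Of 29 genes of S phase 1 was lower, Orc1 of the origin recognition complex (-0.90 ± 0.14, edgeR adjusted p = 0.00162), and of 27 genes of mitosis 1 was lower, Cdca8 (-0.65 ± 0.19, edgeR adjusted p = 0.0388, and adjusted p = 0.197 without G1E replicate 1 and 0.117 without G1E replicate 2). Of 25 housekeeping genes 1 was lower, Psmb2 (-0.67 ± 0.14, edgeR adjusted p = 0.00748, and adjusted p = 0.0693 without G1E replicate 2). Orc1, Cdca8 and Psmb2 lie on chromosome 4. Of 20 p53 targets 1 was higher and 5 lower, among them Sesn2, which restrains mTOR (-1.35 ± 0.24, edgeR adjusted p = 0.00322), and without G1E replicate 1 the lower count was 1. Rn45s, the ribosomal RNA precursor, was at 26998 to 65304 CPM in G1E-ER4 and 39201 to 45999 CPM in G1E, with overlapping groups.

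Of 24 factors that silence DNA and histones 0 were higher and 5 lower, with a median of -0.16. Off chromosomes 2 and 4, 3 of 20 were lower. Suz12, a core subunit of Polycomb repressive complex 2, was read at 593 and 557 CPM in G1E and 342, 312 and 350.4 CPM in G1E-ER4 (-0.78 ± 0.12, edgeR adjusted p = 0.00165). The others were Rcor1, Chd4, Hdac1 and Kdm1a, of the CoREST and NuRD complexes that GFI1B and FOG1 recruit. Their differences were small, -0.73 ± 0.16 for Rcor1, -0.55 ± 0.14 for Chd4 and -0.54 ± 0.12 for Hdac1. These 3 did not pass without G1E replicate 1 (adjusted p = 0.134, 0.192 and 0.0952), nor Hdac1 without G1E replicate 2 (adjusted p = 0.0573). Without G1E replicate 1 the lower count was 1, and with library number runs as a block it was 0.

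Regulatory elements differed between the lines as well. An element is a dREG peak, a region where polymerase starts at a promoter or enhancer, counted whole or by single strand as the deposited table lists it. Of 35158 tested elements 2523 were higher (7.18%) and 4245 lower (12.1%) in uninduced G1E-ER4. At gene starts 904 of 12973 were higher and 589 lower, with a median log2 fold change of 0.16. The balance there turned without G1E replicate 2, to 404 higher and 466 lower, and was 491 to 467 with library number runs as a block. Between genes 783 of 10044 were higher and 2157 lower, or 21.5%, with a median of -0.32. Inside genes 546 were higher and 1003 lower of 7943 in sense direction, and 290 and 496 of 4198 in antisense direction.

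**Figure D4:**
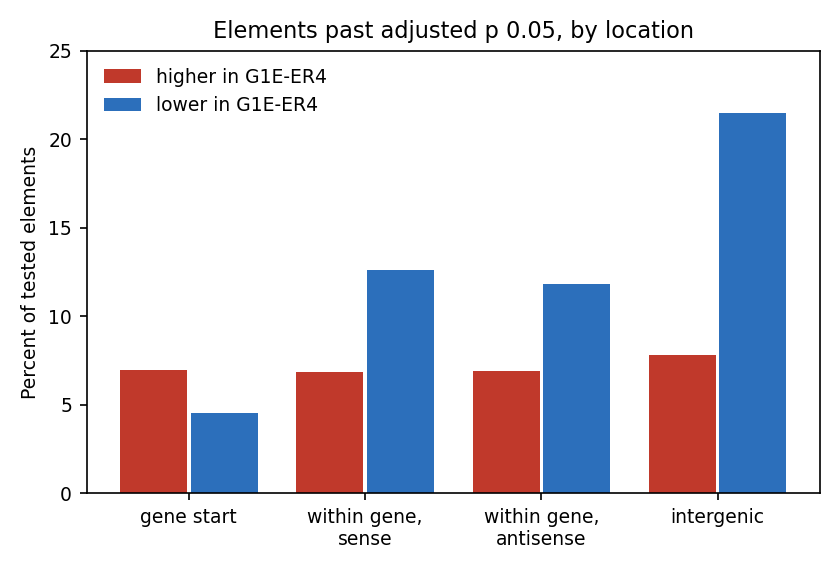
Percent of tested elements that passed an adjusted p under 0.05, higher (red) or lower (blue) in uninduced G1E-ER4, by the location class of the deposited table. The share higher was between 6.87% and 7.80% in each class, and the share lower ran from 4.54% at gene starts to 21.5% between genes.

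The intergenic counts and median depended on G1E replicate 1. Without it 259 were higher and 758 lower and their median was -0.08, and without G1E replicate 2 the counts were 462 and 1960, at a median of -0.40. Scaling the elements by the gene-body library sizes left 588 higher and 398 lower at gene starts. The genes listed beside an intergenic element were set against it. Of the lower intergenic elements whose listed neighbours were tested 34.2% had a lower neighbour gene, against 15.0% for elements that were not called, and of the higher ones 26.8% had a higher neighbour, against 10.5%.

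Of the 8 largest increases of elements 7 lay at gene starts. Beside Srxn1, Golim4 and Foxd2, they were at the starts of Tm2d1 (chr4:98048350-98050801, at least 554-fold), Gna12 (chr5:141305300-141307301, at least 449.7-fold), Bicd1 (chr6:149357050-149359001, at least 386-fold) and Osr2 (chr15:35225400-35227451, at least 325-fold), and inside Chsy1 (chr7:73257500-73259051, plus strand, at least 499-fold). Gna12 encodes a G protein subunit and Chsy1 an enzyme of chondroitin sulphate. All 8 were at 0 reads in both G1E libraries. The Gna12 start stood at 0 and 0 CPM in G1E and 23.9, 27.0 and 18.98 CPM in G1E-ER4.

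Of the 8 largest decreases 2 lay at gene starts. An intergenic element beside Ly6e at chr15:74759050-74765301 was read at 384 and 209 CPM in G1E and 0, 0 and 0 CPM in G1E-ER4 and was at least 13855-fold lower. A second one between Adam6b and Tmem121, at chr12:114660650-114664701 near the immunoglobulin heavy chain locus, was read at 151 and 215 CPM in G1E and 0, 0 and 0.0189 CPM in G1E-ER4, a G1E over G1E-ER4 ratio of 20440.2 (95% counting interval 3668 to 807424). Other intergenic elements lay near Zmiz1 (chr14:26220150-26222401, at least 1619.6-fold) and near Mir3072 (chr12:111209100-111212251, at least 869-fold). Elements inside Dapk1 (chr13:60843750-60847951, at least 1395-fold) and Tenm2 (chr11:36093650-36095651, at least 990.3-fold), and at the start of Mpp7 (at least 1072-fold), also went to 0 in G1E-ER4. The start of Lincenc1, a noncoding RNA of embryonic stem cells, at chr13:98251800-98253451 was read at 105 and 54.6 CPM in G1E and 0.0268, 0 and 0 CPM in G1E-ER4. Every one of these 8 had at most 1 read over the 3 uninduced G1E-ER4 libraries.

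Elements at the loci of the progenitor regulators were looked at beside the 7.18% higher and 12.1% lower of all elements, and 21.5% lower of intergenic ones. The 10 Mb stretches around 3 of the loci had shares of their own. Around Kit (chromosome 5, 70 to 80 Mb) 47 of 164 elements were lower and 13 higher. Around Myb (chromosome 10, 20 to 30 Mb) 52 of 133 were lower and 2 higher. Around Myc (chromosome 15, 60 to 70 Mb) 10 of 78 were lower and 2 higher. Of 14 tested elements within 100 kb of the Kit start 1 was higher and 5 lower. A sense element within Kit at chr5:75974250-75976501 was read at 92.3 and 85.5 CPM in G1E and 38.1, 50.3 and 60.6 CPM in G1E-ER4 (-0.84 ± 0.28, edgeR adjusted p = 0.0467), and an intergenic one at chr5:75875850-75877601 at 5.16 and 3.05 CPM in G1E and 0.268, 0.0621 and 0.435 CPM in G1E-ER4 (-3.94 ± 0.75, edgeR adjusted p = 0.00246). Of 15 elements near Myb 4 were lower, among them the intergenic chr10:20906050-20910001 (28.6 and 16.6 CPM in G1E and 13.1, 8.92 and 10.2 CPM in G1E-ER4; -1.08 ± 0.32, edgeR adjusted p = 0.0296). Of 6 near Myc 3 were lower, and of 14 near Gata2 1 was higher, at chr6:88065300-88068201 (12.9 and 8.82 CPM in G1E and 30.1, 17.9 and 19.3 CPM in G1E-ER4; 1.04 ± 0.29, edgeR adjusted p = 0.0202). In each of the 4 elements named the G1E and G1E-ER4 libraries did not overlap, and non-overlap as such was found for 24.7% of elements on the lower and 21.8% on the higher side.

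Gene bodies and their starts went together. A start element was tested for 10125 genes, and the log2 fold changes of body and start correlated at r = 0.868 across these genes, which are not independent and share libraries. Of 778 genes higher in the body 458 had a start element that was higher and 0 one that was lower. Of 747 lower genes 322 had a lower start element and 2 a higher one. Of the 8600 genes that were not called 343 had a higher and 99 a lower start element.

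Differences were also laid out along chromosomes. Of 248 windows of 10 Mb with at least 10 tested genes the middle 50% had medians between -0.03 and 0.10, but 13 windows lay below -0.3 and 8 above 0.3. The lowest were chromosome 1 from 190 to 200 Mb (-0.72, 30 genes, 13 lower and 1 higher) and chromosome 4 from 110 to 120 Mb (-0.59, 63 genes) and 120 to 130 Mb (-0.50, 93 genes). The highest were the windows of chromosome 2 from 160 to 190 Mb, with 0.56 over 61 genes, 0.62 over 35 and 0.65 over 25. The direction held library by library, since in the window at 180 Mb the 3 G1E-ER4 libraries stood at 0.55, 0.59 and 0.62 relative to the G1E mean and the G1E libraries at -0.02 and 0.02.

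**Figure D5:**
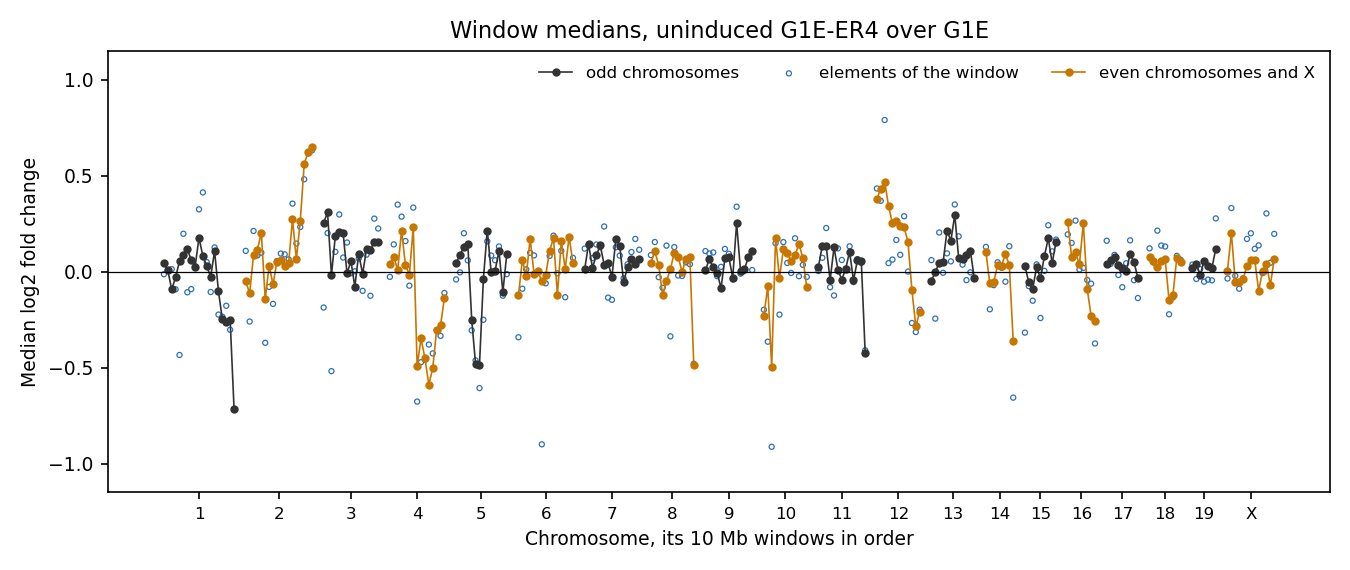
Median log2 fold change, uninduced G1E-ER4 over G1E, of the genes (filled points joined by a line) and the elements (open points) in each 10 Mb window, ordered along each chromosome. Most windows lie near 0, while the end of chromosome 1, chromosome 4 from 110 to 130 Mb and the end of chromosome 2 depart from it in genes and elements alike.

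Elements of the same windows had medians of the same sign. Their median was -0.72 over 87 elements in the lowest window of chromosome 1 and 0.48, 0.61 and 0.63 in the 3 windows of chromosome 2. Over whole chromosomes the median was -0.23 on chromosome 4, with 166 lower and 58 higher of 876 genes, and 0.15 on chromosome 2, with 174 higher and 71 lower of 1119. Most genes in these windows shifted one way, 93.3% of those in the chromosome 1 window lying below 0. Genes of 1 window are neighbours and not replicates, and DNA copy number was not analysed here. Off chromosomes 2 and 4, 858 of 11830 genes were higher and 1088 lower.

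The comparison was last set beside that of 24 h with 13 h of estradiol, which shares no library with it. In that comparison 1617 genes were higher (11.7%) and 1732 lower (12.5%) at 24 h. Both 24 h libraries lie in 1 run of library numbers and the 13 h libraries in other runs, so time and run cannot be told apart. With runs as a block 59 genes were called in all. In that fit the times are linked only through the 0 h libraries, so it no longer avoids them. Of the 1090 genes higher in uninduced G1E-ER4, 9.54% were higher and 18.5% lower at 24 h than at 13 h, which is 6.43% of all genes higher and 11.7% of all lower at 24 h. Of the 1325 genes lower in G1E-ER4, 11.2% were higher and 9.43% lower at 24 h, or 9.21% and 7.22% of the 24 h calls. The window of chromosome 2 from 180 Mb had a median of 0.05 in that comparison and that of chromosome 1 from 190 Mb -0.12.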

How the data were processed

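PRO-seq libraries of G1E and G1E-ER4 cells were compared from the deposited tables of read counts per gene body and per dREG element. The submitters' processing notes name BWA and mm9. Versions, the element caller's settings and whether counting used strand are not stated in the sources used here, so overlapping or antisense genes may share reads. Counts were fitted with edgeR 4.0.16 (R 4.3.3, limma 3.58.1): TMM scaling, filterByExpr at a minimum count of 10, robust quasi-likelihood test, the 4 groups of 9 libraries with 5 residual degrees of freedom, and Benjamini-Hochberg adjustment at 0.05 over all features of a table. DESeq2 1.42.0, other scalings and filters, blocks and leaving out each library were alternatives.

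Named genes were the 15 largest changes each way among called genes whose groups did not overlap and whose counts averaged 50 or more, up to 4 called genes per list, and a set of regulators. The members and lists were chosen with earlier results of these data known. Leaving a G1E library out left 1, which was assumed to vary like the other groups. Replicate numbers were not used as pairs in the main fit, and whether they pair the samples is not known. In simulated counts for genes, 43.9% of changes of log2 size 1 and 73.5% of size 2 were recovered, and for elements 10.3% and 55.9%. Only 98 of 13408 genes were changed at each size, and 97 and 93 of 33715 elements. Far larger shares were called between the lines, so the recovery need not be the same there. Promoter sequences came from RefSeq (GRCm38.p6). Some named genes are not reported here.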

Additional observations from a re-analysis of the deposited data

How the results depend on the processing

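No named gene past the threshold changed sign in any setting run. Among named genes that did not pass, the sign turned for Gata1 with library number runs as a block, for Gata2 and Myb without G1E replicate 1, for Klf1 without G1E replicate 2, for Myb without G1E-ER4 replicate 1, and for Rn45s in 5 settings. The balance of higher to lower calls turned for start elements without G1E replicate 2. For 24 h against 13 h it turned with median-ratio size factors (1777 to 1659), no filter (1644 to 1615) and DESeq2 (2190 to 2151). That balance also turned without G1E replicate 1 and without G1E replicate 2. For genes, the count of 2415 was 1552 with the replicate block (701 higher, 851 lower) and 820 with library number runs as a block (351 higher, 469 lower), and a fold of at least 2 left 687 higher. Deviations of same-numbered libraries from their group means correlated at r = -0.14 and -0.14. With 2 G1E libraries the deviations of 1 mirror those of the other. These values therefore cannot decide whether the numbers pair the samples. Leaving out 1 library gave 1145 to 2255 genes (535 to 1006 higher, 610 to 1249 lower), lowest without G1E replicate 1. For elements, the stricter filter (minimum count 100) left 3599 (1226 higher, 2373 lower), the run block 1629 higher, and leaving out 1 library 2420 to 7306 (954 to 2534 higher, 1466 to 4772 lower). Intergenic elements numbered 1350 with the stricter filter (295 higher, 1055 lower) and 1017 to 3211 without 1 library (259 to 747 higher, 758 to 2464 lower). Elements at gene starts numbered 986 with gene-body scaling and 958 with the run block. The higher ones were 588, 491 and, with the stricter filter, 589. Without 1 library they were 624 to 1594 (398 to 969 higher, 226 to 625 lower).

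Near silent genes numbered 33 to 56 in G1E-ER4 and 37 to 84 in G1E without 1 library. For 24 h against 13 h the run block left 59 genes (22 higher, 37 lower), total counts gave 641 higher and 3079 lower, total counts without Rn45s 642 and 3234, and the replicate block 1073 higher. Without 1 library they were 2693 to 3359 (1302 to 1613 higher, 1391 to 1746 lower). The cause of these shifts was not tested. Of 109 named genes past the threshold, 55 kept it with the same sign in every setting run. Settings for element classes, near silent genes, the times and chromosomes 2 and 4 were chosen after seeing the data.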

Other observations

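The remaining lists stand against 7.88% higher and 9.58% lower of all tested genes. Of 24 heat shock and stress genes 2 were higher, Srxn1 and Trib3, a pseudokinase of the stress response, and 1 was lower. Trib3 did not pass without G1E replicate 2 (edgeR adjusted p = 0.238). Of 14 genes of iron uptake and storage 2 were higher, Cybrd1, a ferric reductase, and Hfe, and 0 lower. Without G1E replicate 1 neither passed (edgeR adjusted p = 0.169 and 0.269), nor Hfe without G1E replicate 2 (adjusted p = 0.0744), and with either block 0 were higher. Of 25 glycolysis genes Pfkm, Pfkfb4 and Eno2 were higher and Pfkfb3 lower. Without either G1E library in turn 1 was higher, Pfkm, and 0 lower (edgeR adjusted p without G1E replicate 1 and 2 of 0.281 and 0.0925 for Eno2, 0.0632 and 0.0713 for Pfkfb4, and 0.0583 and 0.0942 for Pfkfb3). Pfkm, the muscle form of phosphofructokinase, was read at 53.3 and 55.2 CPM in G1E and 79.0, 90.6 and 87.4 CPM in G1E-ER4. Of 19 G1 cyclins and cell cycle inhibitors Rbl1, a relative of the retinoblastoma protein, was higher and Cdkn2b lower. Neither passed without G1E replicate 1 (edgeR adjusted p = 0.172 and 0.0794), nor Cdkn2b without G1E replicate 2 (adjusted p = 0.0626). Of 13 genes of globin switching and developmental stage 0 were higher and 2 lower, Igf2bp2 and Sox6. Neither passed without G1E replicate 1 (edgeR adjusted p = 0.119 and 0.182) or replicate 2 (adjusted p = 0.0625 and 0.112), and 0 were lower with either block.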
